A study of Mus musculus with 8 samples.

Results

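Some mouse T cell receptor alpha variable segments carry a joint TRAV/DV name, because they can be joined in an alpha chain (TRA) or in a delta chain. The chains described here are the productive TRA contigs whose variable segment has DV in its name. There were 475 such contigs among 5997 TRA contigs, in 472 of 5488 cells with a TRA chain and in 311 of 3721 clones. All 10 TRAV/DV segments among the 88 TRAV segments seen were found. A clone is the set of barcodes to which the deposited tables give the same clonotype within a library, counted here where it holds a productive TRA chain. The cells carried the leukocyte marker CD45 and were sorted from brain parenchyma. The mice were C57BL/6 animals of the 5xFAD line, a transgenic model of Alzheimer's disease, and their receptors were sequenced with the 10x Single Cell Immune Profiling v2 kit. There were 2 libraries from 5xFAD;Cxcr6-/- mice, which lack the chemokine receptor CXCR6, and 2 libraries from 5xFAD mice. Both genotypes carry the 5xFAD transgenes, and wild-type brains without them were not analysed here. The labels give no age or sex and do not say whether the libraries of a genotype came from separate mice, so p-values measure the spread between libraries.

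The alpha and delta genes share a locus on mouse chromosome 14. The delta diversity, joining and constant genes lie between the TRAV and the TRAJ genes, so the first alpha joining on a chromosome deletes them. TRAJ genes are numbered from the constant gene outward, so that high numbers lie nearest to the TRAV genes. Successive alpha joinings in a thymocyte use TRAV genes farther upstream and TRAJ genes farther downstream. The mouse TRAV array holds duplicated blocks, marked D and N in segment names, so most segments have near copies elsewhere in the array. CDR3 is the loop encoded across the V to J junction, and it contacts peptide most directly. iNKT-like cells, here those with TRAV11 or TRAV11D joined to TRAJ18, carry the invariant alpha chain of natural killer T cells, and shares are given with and without them.

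The 10 segments lie on the plus strand of chromosome 14 (GRCm38, GENCODE annotation), all annotated as T cell receptor V genes. They span 1013 kb. In order toward the TRAJ genes they are TRAV15D-1-DV6D-1 (chr14:52863299-52863936), TRAV15D-2-DV6D-2 (chr14:52956782-52957400), TRAV16D-DV11 (chr14:53047287-53047821) and TRAV14D-3-DV8 (chr14:53078452-53079045). After a gap of 481 kb follow TRAV15-1-DV6-1 (chr14:53559632-53560247), TRAV15-2-DV6-2 (chr14:53649404-53649994), TRAV4-4-DV10 (chr14:53683647-53684177), TRAV6-7-DV9 (chr14:53709902-53710419), TRAV13-4-DV7 (chr14:53757356-53757921) and TRAV21-DV12 (chr14:53875984-53876752). TRAV21-DV12 ends 281 kb before TRAJ58 and 4.86 kb before TRDV1, a segment of the delta locus. The germline bases that each segment gives to CDR3 are shown because they set part of the loop's length and charge; they begin with the codon of the conserved cysteine.
TRAV15D-1-DV6D-1: tgtgctctctgggagctgg
TRAV15D-2-DV6D-2: tgcgctctctcggaactga
TRAV16D-DV11: tgtgctatgagagaggg
TRAV14D-3-DV8: tgtgcagcaagtg
TRAV15-1-DV6-1: tgtgctctctgggagctgg
TRAV15-2-DV6-2: tgcgctctctcggaactga
TRAV4-4-DV10: tgtgctgctgagg
TRAV6-7-DV9: tgtgctctgagtga
TRAV13-4-DV7: tgtgctatggaac
TRAV21-DV12: tgtatcctgagagtag
The 4 segments of the TRAV15 family gave the longest germline stretch, 19 bases, against 13 bases in TRAV14D-3-DV8, TRAV4-4-DV10 and TRAV13-4-DV7. The V regions of TRAV15D-1-DV6D-1 and TRAV15D-2-DV6D-2 are identical to those of TRAV15N-1 and TRAV15N-2, so chains with these names cannot be told apart from chains of those copies. Of the 475 contigs, 474 held the leading V sequence of their named segment.

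The 5xFAD;Cxcr6-/- libraries were smaller than the 5xFAD libraries. They held 648 and 1127 cells with a TRA chain, in 485 and 901 clones, against 1656 and 2057 cells in 1061 and 1274 clones in the 5xFAD libraries. Total UMIs were 13460 and 22340 against 32169 and 34772, but the median UMI count of TRAV/DV contigs was 4 in every library, as was that of other TRA contigs. Libraries shared 0 to 12 cell barcodes in pairs, and no shared barcode had a chain in common.

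The share of clones that used TRAV/DV segments overlapped between genotypes. They were found in 8.45% and 8.88% of clones in 5xFAD;Cxcr6-/- brains, that is 41 of 485 and 80 of 901, against 8.48% and 7.85% in 5xFAD brains, that is 90 of 1061 and 100 of 1274. The genotypes' values overlapped, with a difference of 0.50 percentage points (8.67 ± 0.30% against 8.17 ± 0.45%, SD, n = 2 each; two-sided exact permutation test, p = 0.667). With 2 libraries a genotype this test cannot give a p below 0.333. The 422 iNKT-like clones made up a larger part of the 5xFAD libraries, and without them the sign turned: 8.70% and 9.10% in 5xFAD;Cxcr6-/- brains against 10.2% and 9.0% in 5xFAD brains, a difference of -0.73 points (exact permutation p = 0.667). Only 4 clones held both a TRAV/DV chain and an iNKT-like chain.

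By cells rather than clones, 5xFAD library 2 stood above the other libraries. Of cells without iNKT-like chains, TRAV/DV chains were in 7.87% and 8.14% in 5xFAD;Cxcr6-/- brains, against 8.05% and 11.4% in 5xFAD brains (difference -1.74 points, exact permutation p = 0.667). Much of the excess of 5xFAD library 2 lay in a single clone of 68 cells: when the largest TRAV/DV clone of each library was left out, the shares were 6.97% and 7.82% against 7.66% and 8.11%, and the difference was -0.49 points. That comparison was added after the data were seen.

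**Figure D1:**
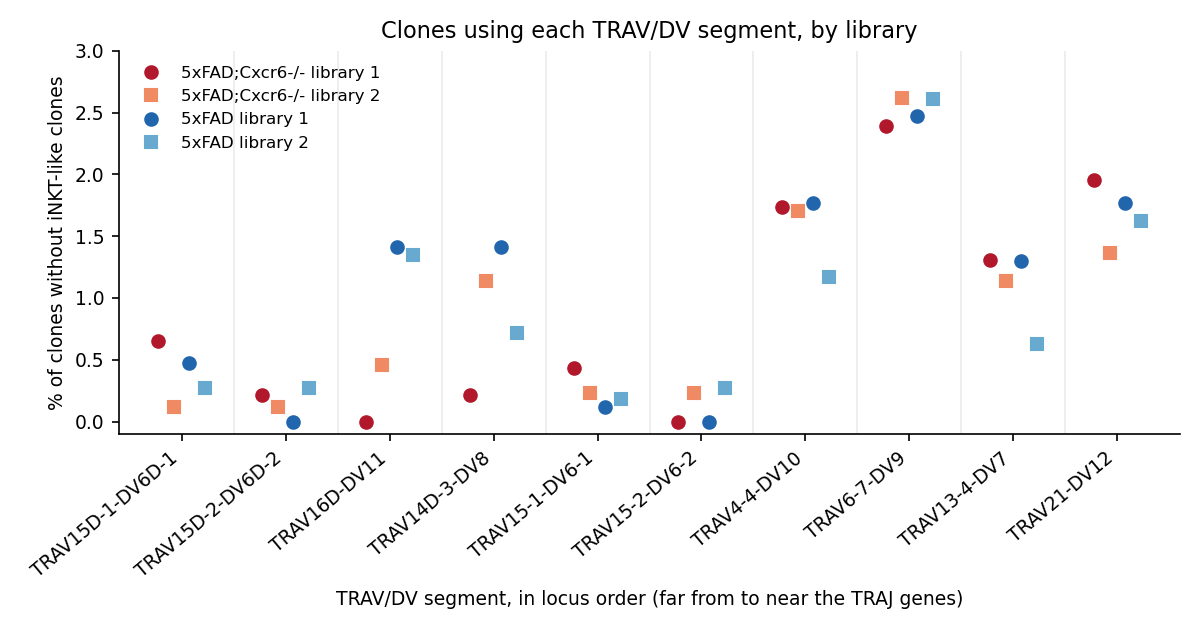
Percentage of clones, without iNKT-like clones, that used each TRAV/DV segment, with 1 point per library; segments run left to right toward the TRAJ genes. TRAV6-7-DV9 was the most used in every library, the highest value of a TRAV15 family segment was 0.652%, and TRAV16D-DV11 was lower in both 5xFAD;Cxcr6-/- libraries.

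Use differed widely between segments. TRAV6-7-DV9 led with 84 clones and 129 cells, in 2.39% and 2.62% of clones without iNKT-like clones in 5xFAD;Cxcr6-/- brains and 2.47% and 2.61% in 5xFAD brains. It also varied least between libraries relative to its level, and ranked 10 by clones among the 88 TRAV segments. TRAV21-DV12 followed with 54 clones, at 1.96% and 1.37% against 1.77% and 1.62%. TRAV4-4-DV10 had 51 clones, at 1.74% and 1.71% against 1.77% and 1.17%, and did not differ from TRAV21-DV12 beyond the spread between libraries (1.60 ± 0.28% against 1.68 ± 0.25%, SD, n = 4).

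The middle of the order held 3 segments whose spreads overlapped. TRAV13-4-DV7 had 34 clones (1.30% and 1.14% against 1.30% and 0.63%). TRAV14D-3-DV8 had 31 clones, with 1 and 10 in the 5xFAD;Cxcr6-/- libraries and 12 and 8 in the 5xFAD libraries. TRAV16D-DV11 also had 31.

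The TRAV15 family was rare. TRAV15D-1-DV6D-1 had 11 clones, TRAV15-1-DV6-1 had 7, and TRAV15D-2-DV6D-2 and TRAV15-2-DV6-2 had 5 each. Together the 4 segments were in 6 and 6 clones of the 5xFAD;Cxcr6-/- libraries and 5 and 11 clones of the 5xFAD libraries. TRAV15-2-DV6-2 was not seen in 5xFAD;Cxcr6-/- library 1 or 5xFAD library 1, and TRAV15D-2-DV6D-2 was not seen in 5xFAD library 1. A count of 0 allows a share of up to 0.619% of the clones of 5xFAD;Cxcr6-/- library 1 and up to 0.283% of those of 5xFAD library 1, as far as counting error goes.

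No TRAV/DV segment passed the test for a difference between genotypes. Clones per segment were compared with edgeR's quasi-likelihood test and Benjamini-Hochberg adjustment over 152 TRA and TRB segments, of which 1.32% were called, counting either direction. Of the 10 TRAV/DV segments, 7 had enough clones to be tested and 0 were called. Of these 7, 1 had an unadjusted p under 0.05, against 9 of all 152 segments. DESeq2 called 0 of them, with 0 at an unadjusted p under 0.05. The median log2 fold change of 5xFAD;Cxcr6-/- over 5xFAD was 0.10 over the 7 segments and 0.13 over all 152. iNKT-like clones were kept in this fit, and TRAV11 was among the segments called (edgeR adjusted p = 0.00037). Without iNKT-like clones 0 TRAV/DV segments were called.

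TRAV16D-DV11 was the segment with the unadjusted p under 0.05. It was found in 0 and 4 clones in 5xFAD;Cxcr6-/- brains, against 12 and 15 clones in 5xFAD brains, and in 0 and 5 cells against 17 and 82 cells. By share of all clones, iNKT-like clones included, the groups did not overlap. This also held for other segments, among them TRAV13N-3, TRAV6N-6, TRAV4D-4 and TRAV19. It held for other TRAV/DV segments too, with higher shares in 5xFAD;Cxcr6-/- brains. TRAV4-4-DV10 was at 1.65% and 1.66% against 1.41% and 1.02%, and TRAV13-4-DV7 at 1.24% and 1.11% against 1.04% and 0.55%. TRAV15-1-DV6-1 was at 0.41% and 0.22% against 0.094% and 0.16%. The share of all segments with such a split was not counted. With 2 libraries against 2, such a split of clone shares has an exact permutation p of 0.333. The log2 fold change of TRAV16D-DV11, -1.95 (SE 0.78), had an adjusted p of 0.703 in edgeR, and the segment is reported as not passing. The fold change was -1.36 without 5xFAD;Cxcr6-/- library 1 and -1.21 with at least 3 UMIs per contig, and -3.2 over cells. Over its alternatives the adjusted p was 0.266 to 0.998. Without 5xFAD;Cxcr6-/- library 2 no 5xFAD;Cxcr6-/- clone was left, and the fitted value of -6.46 depends on the prior count. The 12 clones of 5xFAD library 1 and the 15 of 5xFAD library 2 were 1.13% and 1.18% of clones. These values by clones do not depend on the size of the 68-cell clone. However, 3 of the 15 clones, that clone included, held its alpha chain. Its near copy TRAV16N, which differs by 3 of 273 bases in the V region, had 15 and 38 clones in 5xFAD;Cxcr6-/- brains against 26 and 48 in 5xFAD brains, with a log2 fold change of 0.27. TRAV16, which differs by 5 bases, had 11 and 16 against 17 and 25 clones and a log2 fold change of 0.12.

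The segments with the most like pattern to that of all TRAV/DV clones over the 4 libraries were TRAV4-3, TRAV6-6 and TRAV12-3, among 68 segments compared. Likeness was the root mean square difference of log2 shares after each pattern was divided by its mean, and was 0.14, 0.15 and 0.17. TRAV4-3, for example, was in 1.03% and 1.22% of clones in 5xFAD;Cxcr6-/- brains against 1.32% and 1.18% in 5xFAD brains.

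**Figure D2:**
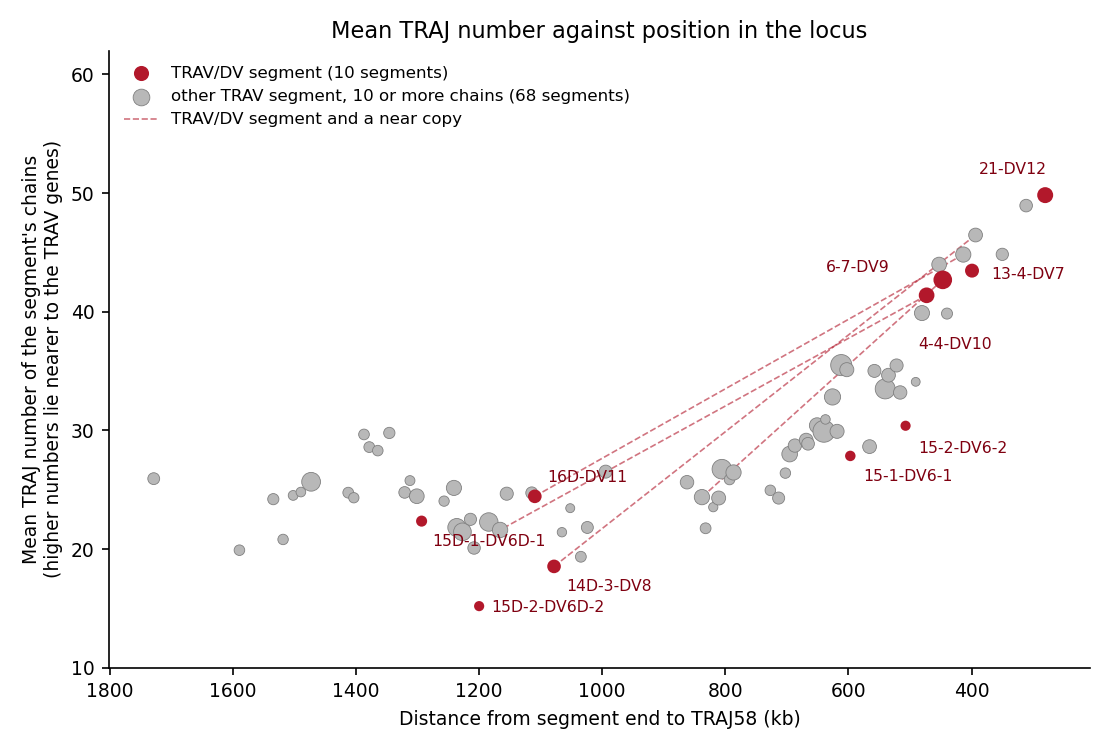
Mean TRAJ number of each segment's chains against the distance in kb from the segment's end to TRAJ58, over the 4 libraries together; point area grows with the number of chains, and dashed lines join 4 TRAV/DV segments to a near copy. The means run from 15.2 for TRAV15D-2-DV6D-2 to 49.8 for TRAV21-DV12, and rise toward the TRAJ genes in both sets of segments.

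TRAV/DV chains were joined to TRAJ genes nearer to the TRAV genes than other TRA chains were. The mean TRAJ number was 39.1 and 39.3 in the 5xFAD;Cxcr6-/- libraries and 36.5 and 37.7 in the 5xFAD libraries, against 29.2 and 30.1, and 28.4 and 28.8, for other chains without iNKT-like chains. All 4 libraries showed the excess, 9.01 ± 0.73 (SD, n = 4; two-sided exact sign-flip permutation test, p = 0.125, the smallest that 4 libraries can give). TRAJ58 to TRAJ40 were used by 51.0 ± 2.6% of TRAV/DV chains and 24.7 ± 1.4% of other chains. TRAJ20 to TRAJ2 were used by 15 ± 2.1% and 24.6 ± 2.0%. The excess was 9.54 ± 0.44 in 5xFAD;Cxcr6-/- libraries and 8.48 ± 0.50 in 5xFAD libraries, a difference of 1.07 (exact permutation p = 0.333, the smallest 2 libraries against 2 can give).

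The excess was not seen against the segments next to them. For each TRAV/DV segment, the chains of up to 2 TRAV segments without DV on either side, with at least 10 chains each, were weighted as the TRAV/DV chains were. Their mean TRAJ number was 41.4 and 39.2 in the 5xFAD;Cxcr6-/- libraries and 36.1 and 38.3 in the 5xFAD libraries. TRAV/DV chains were higher in 2 of 4 libraries, with a mean difference of -0.60 ± 1.21 (exact sign-flip p = 0.5). TRAJ58 to TRAJ40 were used by 51.0 ± 2.6% of TRAV/DV chains and 57.7 ± 7.9% of the weighted neighbours, and TRAV/DV chains were lower in 4 of 4 libraries, with a mean difference of -6.72 ± 7.42 points (exact sign-flip p = 0.125). By segment over all libraries, TRAV16D-DV11, TRAV4-4-DV10 and TRAV6-7-DV9 were 0.31, 0.31 and 0.16 above their neighbours and TRAV21-DV12 was 2.86 above. TRAV21-DV12 had only 2 neighbours, TRAV17 and TRAV19, both farther from the TRAJ genes, so it was not matched for position. TRAV13-4-DV7 was at -1.11 and TRAV15D-1-DV6D-1 at -2.34. TRAV14D-3-DV8 was at -5.59, TRAV15-2-DV6-2 at -6.07, TRAV15-1-DV6-1 at -6.32 and TRAV15D-2-DV6D-2 at -6.60, the last 3 over 5, 7 and 5 chains. This comparison was added after the data were seen.

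**Figure D3:**
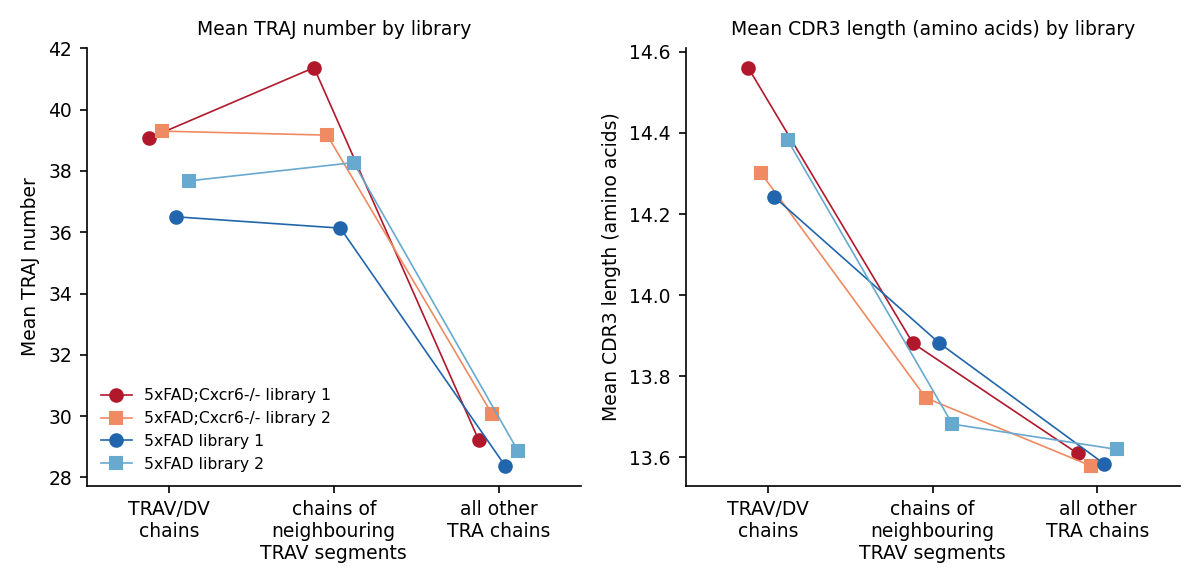
Mean TRAJ number (left) and mean CDR3 length in amino acids (right) of TRAV/DV chains, of chains of neighbouring TRAV segments and of all other TRA chains, with 1 line per library and axes that do not start at 0. TRAV/DV chains and their neighbours overlap in TRAJ number, while the 4 TRAV/DV values for CDR3 length, 14.2 to 14.6, lie above all values of both other sets.

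Within the 10 segments the TRAJ number followed position in the locus. The 4 upstream segments had means of 22.4 for TRAV15D-1-DV6D-1, 15.2 for TRAV15D-2-DV6D-2, 24.5 for TRAV16D-DV11 and 18.5 for TRAV14D-3-DV8. The 6 downstream segments had 27.9 for TRAV15-1-DV6-1, 30.4 for TRAV15-2-DV6-2, 41.4 for TRAV4-4-DV10, 42.7 for TRAV6-7-DV9, 43.5 for TRAV13-4-DV7 and 49.8 for TRAV21-DV12. TRAJ58 to TRAJ40 took 81.5% of the chains of TRAV21-DV12 and 9.68% of those of TRAV14D-3-DV8. Across the 10 segments, start position and mean TRAJ number had a Pearson r of 0.90 and a Spearman rho of 0.94. Over the 68 other TRAV segments with at least 10 chains these were 0.71 and 0.72. These correlations are over segments that share the same 4 libraries, and are given as a description.

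Most of these segments have a near copy at another place in the locus. TRAV14D-3-DV8 differs from TRAV14-3, which starts 685 kb nearer to the TRAJ genes, by 8 of 267 V-region bases. Their mean TRAJ numbers were 18.5 over 31 chains and 46.5 over 53 chains, and TRAV14D-3-DV8 was lower in all 4 libraries, with a single chain in 5xFAD;Cxcr6-/- library 1. TRAV16D-DV11 had 24.5 over 31 chains, near the 26.7 of TRAV16N over 127 chains and below the 44.8 of TRAV16 over 69 chains.

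For 3 downstream TRAV/DV segments with a near copy upstream the order was the other way round. TRAV4-4-DV10 had a mean of 41.4 over 51 chains, against 21.6 over 71 chains for TRAV4D-4, which lies 693 kb upstream and differs by 8 of 258 bases. TRAV6-7-DV9 had 42.7 over 85 chains, against 24.4 over 70 chains for TRAV6N-7, which lies 391 kb upstream and differs by 5 of 267 bases. TRAV6D-7 also differs by 5 bases but had only 1 chain, with a TRAJ number of 13. TRAV13-4-DV7 had 43.5 over 34 chains, against 21.0 over 7 chains for TRAV13D-4. In these 3 pairs the downstream segment had the higher number in every library in which both were seen. The TRAV15 pairs, with 5 to 11 chains a segment, were mixed. TRAV15-1-DV6-1 had 27.9 against 22.4 for TRAV15D-1-DV6D-1 and was lower in 2 of 4 libraries. TRAV15-2-DV6-2 had 30.4 against 15.2 for TRAV15D-2-DV6D-2, and of the 2 libraries with both it was lower in 5xFAD;Cxcr6-/- library 2.

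**Figure D4:**
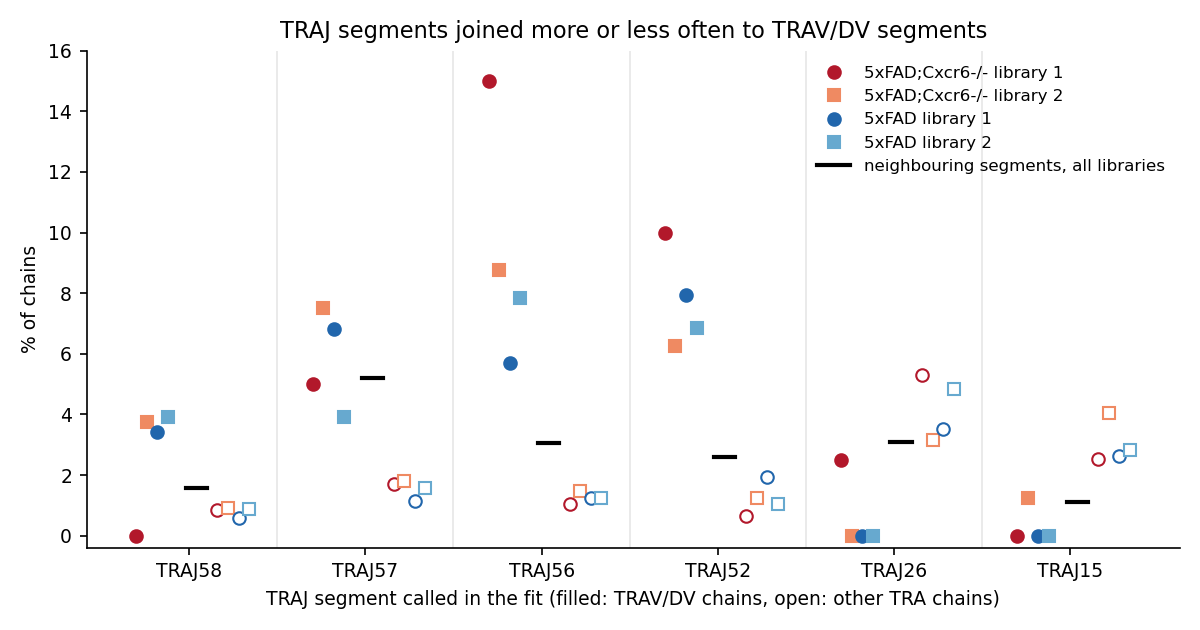
Percentage of TRAV/DV chains (filled) and of other TRA chains (open) that used each of the 6 called TRAJ segments, by library; the black bar gives neighbouring TRAV segments over all libraries. TRAJ52 and TRAJ56 were higher in all 4 libraries, and TRAJ26 and TRAJ15 were at 0 in 3 of 4 libraries each.

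Of the segments joined to or paired with TRAV/DV chains, 6 passed the test, all of them TRAJ. Partner segments of TRAV/DV and other clones without iNKT-like clones were compared with edgeR's quasi-likelihood test with library as a block, adjusted over 77 segments. The share called was 7.79%, with 5.19% higher and 2.6% lower. Among 43 TRAJ segments 4 rose, TRAJ56, TRAJ52, TRAJ57 and TRAJ58, and 2 fell, TRAJ26 and TRAJ15. TRAJ56 and TRAJ52 were called under each of the 11 alternative settings tried, and the other 4 lost the call under some. Without 5xFAD;Cxcr6-/- library 2 the adjusted p in edgeR was 0.058 for TRAJ57, 0.144 for TRAJ58 and 0.058 for TRAJ15. Without 5xFAD library 1 it was 0.064 for TRAJ57, 0.133 for TRAJ58, 0.130 for TRAJ26 and 0.133 for TRAJ15. Without 5xFAD library 2 it was 0.289 for TRAJ58, 0.167 for TRAJ26 and 0.289 for TRAJ15, and without 5xFAD;Cxcr6-/- library 1 it was 0.062 for TRAJ15.

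TRAJ56 was the TRAJ most used by TRAV/DV chains. It was used by 15% and 8.75% of them in the 5xFAD;Cxcr6-/- libraries and 5.68% and 7.84% in the 5xFAD libraries, against 1.06% and 1.46%, and 1.25% and 1.23%, of other chains. Its log2 fold change over other chains came to 2.70 with an SE of 0.41 (adjusted p = 4.8e-06, edgeR). Of its 26 TRAV/DV chains, 15 used TRAV21-DV12 and 5 used TRAV4-4-DV10. Neighbouring segments used TRAJ56 in 3.05% of chains, against 8.28% of TRAV/DV chains over all libraries. The neighbours of TRAV21-DV12 both lie farther from the TRAJ genes than it does, so this comparison was not matched for position there.

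TRAJ52 came next. It was used by 10.0% and 6.25% of TRAV/DV chains in the 5xFAD;Cxcr6-/- libraries and 7.95% and 6.86% in the 5xFAD libraries, against 0.64% and 1.24%, and 1.94% and 1.05%, of other chains. Its log2 fold change came to 2.5 with an SE of 0.43 (adjusted p = 2.6e-05, edgeR). Of 23 chains, 12 used TRAV6-7-DV9 and 7 used TRAV13-4-DV7, where it was 20.6% of the segment's chains. Neighbouring segments used TRAJ52 in 2.61% of chains, against 7.32% of TRAV/DV chains.

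TRAJ49, in 18 TRAV/DV chains, was not called. It was in 7.5% and 5% of them in the 5xFAD;Cxcr6-/- libraries and 4.55% and 6.86% in the 5xFAD libraries, against 3.18% and 3.82%, and 3.65% and 3.51%, of other chains. It was higher in 4 of 4 libraries (log2 fold change 0.69, SE 0.43, edgeR adjusted p = 0.422).

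TRAJ57 and TRAJ58 rose less than TRAJ56 and TRAJ52. TRAJ57 was used by 5.81 ± 1.64% of TRAV/DV chains and 1.55 ± 0.29% of others (SD, n = 4; log2 fold change 1.9, edgeR adjusted p = 0.003), and 12 of its 18 chains used TRAV21-DV12. Neighbouring segments used it in 5.20% of chains, close to the 5.73% of TRAV/DV chains. TRAJ58 was used by 2.77 ± 1.86% against 0.80 ± 0.15% (log2 fold change 1.98, edgeR adjusted p = 0.026), with 0 of 40 chains in 5xFAD;Cxcr6-/- library 1. The TRAJ58 call was lost under 7 of the 11 settings and the TRAJ57 call under 4. Over all libraries TRAJ58 was in 3.18% of TRAV/DV chains and 1.58% of chains of neighbouring segments.

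TRAJ26 and TRAJ15, which lie farther from the TRAV genes than the 4 that rose, fell to 1 TRAV/DV chain each. TRAJ26 was in 1 TRAV/DV chain and in 139 other chains (log2 fold change -3.55, edgeR adjusted p = 0.013). TRAJ15 was in 1 and 103 (log2 fold change -3.14, edgeR adjusted p = 0.033). The TRAJ15 call was lost under 9 of the 11 settings and the TRAJ26 call under 3. Over all libraries each was in 0.318% of TRAV/DV chains, while neighbouring segments used TRAJ26 in 3.08% and TRAJ15 in 1.10% of chains.

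No beta chain segment passed the test. Of 22 TRBV segments 0 were called, with 1 at an unadjusted p under 0.05, and of 12 TRBJ segments 0 were called, with 1 at an unadjusted p under 0.05. The exception at the unadjusted level among TRBV was TRBV3, which was also the TRBV most often paired with TRAV/DV chains. It was in 22.5% and 12.3% of the beta chains of TRAV/DV clones in the 5xFAD;Cxcr6-/- libraries and 14.4% and 9.71% in the 5xFAD libraries, against 9.09% and 6.33%, and 8.04% and 7.91%, in other clones. It was higher in 4 of 4 libraries, with a log2 fold change of 0.81 (SE 0.29, edgeR adjusted p = 0.078). TRBV12-2+TRBV13-2, as the files name it, was next at 8.04 ± 2.35% against 8.39 ± 1.69%, then TRBV19 at 7.69 ± 4.32% against 7.86 ± 1.71% (SD, n = 4). TRBJ2-7 was the leading TRBJ at 21.2 ± 5.3% against 21.8 ± 1.6%, followed by TRBJ2-5 at 13.9 ± 4.1% against 10.9 ± 1.0%. TRAV/DV clones used 16 and 21 TRBV segments in the 5xFAD;Cxcr6-/- libraries and 19 and 19 in the 5xFAD libraries.

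On average over all segments, the CDR3 of TRAV/DV chains was longer than that of other TRA chains. Its mean length, with the conserved end residues included, was 14.6 and 14.3 amino acids in the 5xFAD;Cxcr6-/- libraries and 14.2 and 14.4 in the 5xFAD libraries, against 13.6 in each library for other chains. The difference was 0.77 ± 0.13 amino acids in 4 of 4 libraries (exact sign-flip p = 0.125). Against neighbouring segments it was 0.57 ± 0.16, also in 4 of 4 libraries (exact sign-flip p = 0.125, a comparison added after the data were seen). Near copies without DV mostly had a CDR3 at least as long. TRAV16D-DV11 averaged 14.71 against 14.81 for TRAV16N, and TRAV14D-3-DV8 13.61 against 13.96 for TRAV14-3. TRAV4-4-DV10 averaged 13.41 against 13.55 for TRAV4D-4, and TRAV13-4-DV7 13.41 against 13.43 for TRAV13D-4. Only TRAV6-7-DV9 was longer, 14.69 against 13.63 for TRAV6N-7.

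Bases matched to the germline made up most of the extra length. In a CDR3 longer by 2.32 ± 0.38 bases, TRAV/DV chains had 1.28 ± 0.26 more bases matched to the V and 0.91 ± 0.39 more matched to the J, in 4 of 4 libraries each. The germline ends of the segments used, before any trimming, were longer by 1.05 ± 0.31 bases for V and 1.08 ± 0.30 bases for J. Bases matched by neither germline numbered 3.0 ± 0.11 in TRAV/DV chains and 2.87 ± 0.04 in other chains, a difference of 0.13 ± 0.13 that was positive in 3 of 4 libraries (exact sign-flip p = 0.25). Chains with no unmatched base were 16.3 ± 3.0% and 14.3 ± 2.1%.

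Mean CDR3 length varied between segments. The TRAV15 family, with the 19-base ends, averaged 15.3 amino acids over 28 chains, TRAV21-DV12, with 16 bases, averaged 15, and TRAV16D-DV11, with 17 bases, averaged 14.7. TRAV14D-3-DV8, TRAV4-4-DV10 and TRAV13-4-DV7, with 13 bases each, averaged 13.6, 13.4 and 13.4. TRAV6-7-DV9 was at 14.7 with a germline end of 14 bases and had the most unmatched bases of the 10 segments, 3.85 per chain. TRAV15-2-DV6-2 and TRAV14D-3-DV8 kept all germline V bases in 80% and 74.2% of their chains, over 5 and 31 chains.

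Net charge of CDR3, counted as lysine and arginine minus aspartate and glutamate without the 3 residues at each end, was 0.582 ± 0.075 in TRAV/DV chains and 0.486 ± 0.012 in other chains. The difference of 0.096 ± 0.072 was positive in 4 of 4 libraries (exact sign-flip p = 0.125). It was 0.061 without 5xFAD library 1, 0.046 with iNKT-like chains kept and 0.2 over cells. TRAV21-DV12, with 54 of the 314 TRAV/DV chains, was the most positive at 1.61. TRAV16D-DV11, TRAV14D-3-DV8, TRAV6-7-DV9 and TRAV13-4-DV7 were at 0.71, 0.65, 0.58 and 0.53. The difference was not recomputed without TRAV21-DV12, so it cannot be read as shared by the TRAV/DV segments. TRAV4-4-DV10 was at -0.12 and the TRAV15 family at -0.21. Mean hydropathy on the Kyte-Doolittle scale was -1.48 ± 0.07 against -1.50 ± 0.03, a difference of 0.022 ± 0.092 (exact sign-flip p = 0.75).

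**Figure D5:**
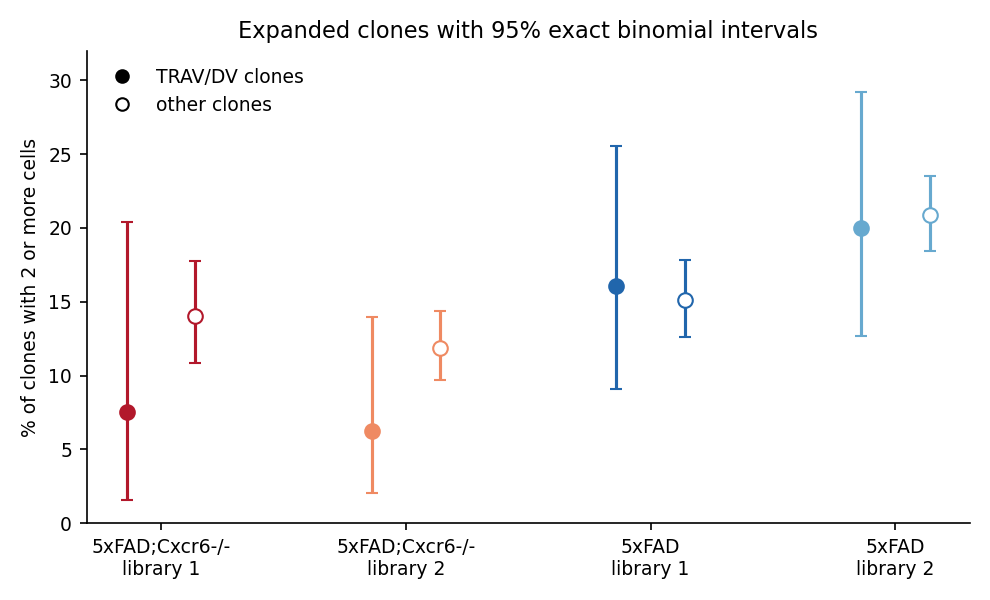
Percentage of clones with 2 or more cells among TRAV/DV clones (filled) and other clones (open) in each library, without iNKT-like clones; bars are 95% exact Clopper-Pearson intervals, which cover counting error only. The 2 TRAV/DV values of 5xFAD;Cxcr6-/- libraries, 7.5% and 6.25%, lie below the 16.1% and 20% of the 5xFAD libraries, with overlapping intervals.

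Both 5xFAD;Cxcr6-/- libraries had a smaller share of expanded TRAV/DV clones, those of 2 or more cells, than either 5xFAD library. Expanded clones were 3 of 40 (7.5%) and 5 of 80 (6.25%) in the 5xFAD;Cxcr6-/- libraries, against 14 of 87 (16.1%) and 20 of 100 (20%) in the 5xFAD libraries. The groups did not overlap (difference -11.2 points, exact permutation p = 0.333, the smallest that 2 libraries against 2 can give). Other clones were expanded in 14% and 11.9% against 15.1% and 20.9%, a difference of -5.01 points, and did not overlap either. The number of cells sets how many clones can be seen more than once, and the 5xFAD libraries held more cells. Thinned to 623 cells without iNKT-like chains per library, over 200 draws, TRAV/DV clones were expanded in 7.5% and 6.14% against 12.3% and 19.3%, and other clones in 12.9% and 8.26% against 11.8% and 14.3%.

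The share of TRAV/DV clones among expanded clones was set against that among single clones. It was 4.84% against 9.30% and 5.00% against 9.63% in the 5xFAD;Cxcr6-/- libraries, and 10.9% against 10.1% and 8.66% against 9.09% in the 5xFAD libraries. Expanded minus single was -4.46 and -4.63 points in the 5xFAD;Cxcr6-/- libraries and 0.71 and -0.43 points in the 5xFAD libraries. The mean of all 4 was -2.20 ± 2.74 (exact sign-flip p = 0.375), and the genotypes differed by -4.68 points (exact permutation p = 0.333). At 3 or more cells the mean was 0.67 points.

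No TRAV/DV segment was called between expanded and single clones in edgeR's quasi-likelihood test with library as a block, against 1.32% called over all 152 segments. At an unadjusted p under 0.05 there were 0 of the 7 tested and 12 of all 152 segments. DESeq2 called 0 of the 7, with 0 at an unadjusted p under 0.05. The median log2 fold change of expanded over single was -0.58 over the 7 segments and 0.13 over all segments. iNKT-like clones were kept in this fit too, and TRAV11 was among the segments called (edgeR adjusted p = 6.5e-06). TRAV6-7-DV9 had 15 expanded clones of 84, 2 of 34 in 5xFAD;Cxcr6-/- libraries and 13 of 50 in 5xFAD libraries. TRAV13-4-DV7 had 0 of 16 against 6 of 18, TRAV14D-3-DV8 had 1 of 11 against 4 of 20, TRAV21-DV12 had 1 of 21 against 3 of 33, and TRAV4-4-DV10 had 2 of 23 against 3 of 28. TRAV16D-DV11 had 1 of 4 against 2 of 27. TRAV15-1-DV6-1 had 1 of 4 against 2 of 3, and TRAV15-2-DV6-2 had 0 of 2 against 1 of 3. TRAV15D-1-DV6D-1 and TRAV15D-2-DV6D-2 had 0 expanded clones of 11 and 5.

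The largest TRAV/DV clones are shown with the CDR3 of their alpha chain, because large clones weigh on cell counts. Capitals mark bases matched by neither the germline V nor the germline J.
5xFAD;Cxcr6-/- library 1, 7 cells, TRAV6-7-DV9 and TRAJ52: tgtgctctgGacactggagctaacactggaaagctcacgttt
5xFAD;Cxcr6-/- library 1, 4 cells, TRAV6-7-DV9 and TRAJ52: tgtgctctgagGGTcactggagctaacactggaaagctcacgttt
5xFAD;Cxcr6-/- library 2, 5 cells, TRAV21-DV12 and TRAJ21: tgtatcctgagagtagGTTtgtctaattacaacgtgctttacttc
5xFAD;Cxcr6-/- library 2, 4 cells, TRAV15-1-DV6-1 and TRAJ52: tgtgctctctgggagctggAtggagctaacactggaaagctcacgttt
5xFAD library 1, 9 cells, TRAV16D-DV11 and TRAJ49: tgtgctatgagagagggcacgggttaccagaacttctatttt
5xFAD library 1, 7 cells, TRAV6-7-DV9 and TRAJ53: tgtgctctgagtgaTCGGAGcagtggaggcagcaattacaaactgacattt
5xFAD library 2, 68 cells, TRAV16D-DV11 and TRAJ27: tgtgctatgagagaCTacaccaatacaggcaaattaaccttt
5xFAD library 2, 20 cells, TRAV6-7-DV9 and TRAJ52: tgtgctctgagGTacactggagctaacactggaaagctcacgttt
TRAJ52 was in 4 of these 8 chains, and TRAV6-7-DV9 in 4, and these counts overlap. Among all TRAV/DV clones 27.0% used TRAV6-7-DV9. TRAJ52 was in 7.32% of all TRAV/DV chains and in 14.1% of those of TRAV6-7-DV9.

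The 68-cell clone was paired with TRBV12-2 and TRBJ1-1. It made up 3.31% of cells with a TRA chain in 5xFAD library 2 (95% exact interval 2.58% to 4.17%) and 68 of the 82 TRAV16D-DV11 cells there. The same alpha chain was in 2 further clonotypes of 1 cell each that held no beta chain. The 9-cell clone of 5xFAD library 1 used the same TRAV16D-DV11, TRBV12-2 and TRBJ1-1, but TRAJ49 and no unmatched alpha base; 6 of its 9 cells had the alpha chain. The beta CDR3 of both clones had the same length, 13 amino acids, and they are printed for comparison.
68-cell clone, TRBV12-2 and TRBJ1-1: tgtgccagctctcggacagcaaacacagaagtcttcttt
9-cell clone, TRBV12-2 and TRBJ1-1: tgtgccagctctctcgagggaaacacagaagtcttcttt

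The 20-cell clone was paired with TRBV26 and TRBJ1-4, and its alpha chain was recovered in 12 cells. The identical alpha CDR3 bases were in 5xFAD library 1, in 2 cells of a 4-cell clone with TRBV12-2 and TRBJ2-5, so the alpha chain was shared and the beta chain was not. The 5-cell clone of 5xFAD;Cxcr6-/- library 2 held another alpha chain, TRAV7-1 with TRAJ22, and TRBV3.

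Few TRAV/DV chains recurred between libraries. Of 300 distinct chains by V, J and CDR3 amino acids, 5 (1.67%) were in 2 libraries and 0 in 3 or more, against 60 (1.87%) and 3 of 3213 other chains. The 5 were outside the rule for named chains and were chosen after their values were seen. They are TRAV14D-3-DV8 with TRAJ22, TRAV16D-DV11 with TRAJ22, TRAV21-DV12 with TRAJ56, TRAV21-DV12 with TRAJ57, and TRAV6-7-DV9 with TRAJ52. The chain with TRAJ22 below was in 4 clones of 2 libraries with 4 different beta chains, and it and the chain with TRAJ57 have no base outside the germline.
TRAV14D-3-DV8 and TRAJ22: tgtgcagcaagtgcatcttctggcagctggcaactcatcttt
TRAV21-DV12 and TRAJ57: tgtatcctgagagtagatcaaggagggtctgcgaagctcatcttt

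The share of TRAV/DV among TRA chains overlapped between cells with 2 TRA chains and cells with 1. They were 8.41% and 7.22% of the chains of cells with 2 TRA in the 5xFAD;Cxcr6-/- libraries and 10.2% and 8.76% in the 5xFAD libraries, against 7.75% and 8.61%, and 8.85% and 7.91%, in cells with 1 TRA. The difference was 0.36 ± 1.20 points, positive in 3 of 4 libraries (exact sign-flip p = 0.625). It was 0.94 without 5xFAD;Cxcr6-/- library 2, 0.039 without 5xFAD library 1 and 0.20 without 5xFAD library 2. There were 76 cells with 2 TRA of which at least 1 was TRAV/DV, in 68 clones. In 3 of them both chains were TRAV/DV, and 4 held an iNKT-like chain. Among the other 73, the TRAV/DV chain had more UMIs than its companion in 27 cells, as many in 10 and fewer in 36. Cells with 2 TRA can be doublets, whose part in these counts was not tested.

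The TRAV15 family departed from the other TRAV/DV segments here. Of its 28 clone chains, 16 (57.1%) were in a cell with 2 TRA, against 55 of 286 (19.2%) for the other TRAV/DV segments and 736 of 3405 (21.6%) for other TRA chains. By library the family had 4 of 6 and 2 of 6 in the 5xFAD;Cxcr6-/- libraries, and 4 of 5 and 6 of 11 in the 5xFAD libraries. This split was chosen after the values were seen and was not tested.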

How the data were processed

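The deposited tables list assembled receptor contigs per cell barcode, with counts of reads and UMIs per contig as deposited by the authors, without normalization. Per the submitters' processing notes they were made with Cell Ranger 6.0 and the mm10 build; the receptor reference is not given in the sources used here. Group and library number came from the labels. Gene expression libraries were not used here. All contigs are productive. Clones are the deposited clonotypes of a library with a TRA chain (3721 of 4464); a receptor whose cells lack a chain can be split over several clonotypes. Single measures were compared over libraries with exact two-sided permutation tests, and clones per segment, for segments with at least 10 clones in all, with edgeR 4.0.16 (quasi-likelihood) in R 4.3.3, with DESeq2 1.42.0 as an alternative. Scripts were tested on simulated data. Germline sequences and positions came from GENCODE M21 on GRCm38, the same assembly as mm10; mature CDR3 bases are from the deposited tables. Members and lists were chosen with earlier results of these data known. Every TRAV/DV segment, called partner segments, the leading 3 TRAJ, 3 TRBV and 2 TRBJ, the closest copies of the same family (other family members were not described singly), and the 2 largest TRAV/DV clones of a library are named. Intervals are exact at 95% and cover counting error only, since reads and UMIs of a clone's cells are not independent clones.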

Additional observations from a re-analysis of the deposited data

How the results depend on the processing

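Of 363 values recomputed under alternative settings, 312 were rated the same, 23 lost a call, 4 counts moved by more than 1.5 times and 24 changed sign. Differences were rated by sign alone, segment fold changes by sign and side of the threshold, and counts by the limit of 1.5 times. The cause of the changes was not tested. No TRAV/DV segment was called under any alternative, for genotype or for expansion. The count of called partner segments, 6, was 2 with DESeq2, 3 with cells in place of clones, and 3 to 5 when a library was left out (3 without 5xFAD;Cxcr6-/- library 2). Without 5xFAD library 1 the 3 called were 2 of the 6 and TRAJ50, and without 5xFAD library 2 the 4 called were 3 of the 6 and TRBV3. The genotype difference in TRAV/DV share of clones was -0.32 with distinct chains in place of clones. It was 0.18 to 0.82 points when a library was left out. Without iNKT-like clones it was -1.35 to -0.10, and the difference in cells was -3.43 to -0.05 (without 5xFAD library 1 and without 5xFAD library 2). Expanded minus single was 0.67 with expanded set at 3 or more cells. The TRAJ difference was -0.60 against neighbouring segments. The hydropathy difference was -0.029 with iNKT-like chains kept and -0.088 over cells, and ranged from -0.00066 to 0.067 without a library. The difference between cells with 2 and with 1 TRA was -0.41 over cells and 1.38 with at least 3 UMIs per contig.

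Segment fold changes that changed sign were all uncalled. For genotype, TRAV14D-3-DV8 was at 0.016 with at least 3 UMIs and from -1.99 to 0.37 without a library. TRAV15D-1-DV6D-1 was at 0.14 with DESeq2, 0.069 with the replicate block, 0.31 over cells and 1.01 without 5xFAD;Cxcr6-/- library 2, the only library left out for which it had enough clones. TRAV21-DV12 was at -0.24 with at least 3 UMIs, -0.041 with TMM scaling, -0.086 over distinct chains, -0.10 without iNKT-like clones and from -0.085 to 0.39 without a library. TRAV6-7-DV9 was at -0.0070 without iNKT-like clones. For expansion, TRAV14D-3-DV8 was at -0.046 with TMM scaling. Without a library TRAV13-4-DV7 ranged from -0.80 to 0.92, TRAV14D-3-DV8 from -0.55 to 0.63 and TRAV6-7-DV9 from -0.29 to 0.78.

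The labels do not say whether equal library numbers pair the samples. Deviations of libraries with the same number had a correlation of -0.05. With 2 libraries a genotype this is a single value, which cannot decide the question. With the replicate block the genotype differences were 0.50 points for clones, -0.73 without iNKT-like clones and -1.74 for cells, and 0 TRAV/DV segments were called. Depth limits rare segments most, since 4 of the 10 have 11 clones or fewer.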

Other observations

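In cells with a TRAV/DV chain and another TRA chain, the TRAJ numbers of both chains were set side by side over 65 clones, in a comparison made after the data were seen. In 49 clones with a downstream TRAV/DV segment (TRAV15-1-DV6-1 to TRAV21-DV12), the mean TRAJ number was 39.1 for the TRAV/DV chain and 35.2 for its companion. In 16 clones with an upstream segment it was 16.9 for the TRAV/DV chain and 20.8 for its companion. An iNKT-like chain, fixed at TRAJ18 by definition, was the companion in 4 cells, and no mean is given without these cells. The companions used 40 TRAV segments, and the median difference between the TRAJ numbers of both chains was 9. These are descriptions over clones of 4 libraries, and no test was run.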
